A study of Mus musculus with 18 samples.

Results

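The genes described here are 43 genes of mitosis, chosen by symbol, among the 13816 gene IDs of a table made from bulk RNA sequencing of mouse skin. All 43 symbols were found in the table, each with a single ID. Cells were sorted by flow cytometry from trypsin-treated dorsal skin into populations labelled EpSCs, Germ and Bulge. Each population was taken from control skin (day 0) and from skin treated with DPCP (day 2), with 3 samples in each of the 6 groups. DPCP stands for diphenylcyclopropenone, a contact allergen used to inflame skin, and the series concerns hair growth in contact hypersensitivity. The labels call the cells keratinocytes and do not spell out EpSCs. The strain and age of the mice, the DPCP dose and the number of animals behind a group are not stated in the labels.

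Mitosis is driven by Cdk1 bound to cyclins A and B, which starts chromosome condensation and spindle assembly. The spindle checkpoint holds cells before anaphase until every kinetochore is attached, and the anaphase-promoting complex (APC/C) then marks cyclin B and securin for destruction. The chromosomal passenger complex corrects attachments and, with the central spindle, sets where the cell divides. Genes of this program share late cell-cycle promoter elements and are silenced in resting cells. In skin, stem cells of the resting follicle divide rarely, and those of the hair germ, just below the bulge, are known to divide first when a new hair cycle starts.

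The promoters are shown first because the shared elements are the main sequence feature of these genes. A promoter is here the window from 250 bases before to 50 after a transcription start, taken from RefSeq on GRCm38.p6. The table of promoters held 39 windows for 36 of the 43 genes, and Aurkb, Ccna2, Cdc25c, Incenp, Kif20a, Smc4 and Tpx2 had none. The motifs searched on both strands were TTTGAA, the core of the cell cycle genes homology region (CHR), and CCAAT, the box bound by NF-Y. A match of the first and a match of the second can share at most an end base. The promoters below are those of Ccnb2 (chr9:70421505-70421804, minus strand), the mitosis gene called in Germ, of Cenpa (chr5:30666636-30666935, plus strand) and Cdc20 (chr4:118437294-118437593, minus strand), which had the next smallest p in Germ among genes with a promoter, and of Ube2c (chr2:164769679-164769978, plus strand), added after its values were seen because its response differed between populations. Each is written 5′ to 3′ on the strand of its gene, and capitals mark TTTGAA and CCAAT or their reverse complements.
Ccnb2: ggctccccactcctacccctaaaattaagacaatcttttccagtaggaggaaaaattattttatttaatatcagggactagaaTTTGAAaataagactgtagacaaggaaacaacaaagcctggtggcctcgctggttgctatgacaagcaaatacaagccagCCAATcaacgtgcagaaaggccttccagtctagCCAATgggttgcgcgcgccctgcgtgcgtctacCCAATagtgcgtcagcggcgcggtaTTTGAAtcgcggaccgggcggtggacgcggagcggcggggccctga
Cenpa: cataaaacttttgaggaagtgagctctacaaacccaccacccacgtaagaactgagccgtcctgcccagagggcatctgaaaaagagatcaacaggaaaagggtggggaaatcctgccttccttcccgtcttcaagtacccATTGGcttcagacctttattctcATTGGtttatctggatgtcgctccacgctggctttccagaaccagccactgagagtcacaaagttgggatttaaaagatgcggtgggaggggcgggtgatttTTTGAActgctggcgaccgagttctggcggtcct
Cdc20: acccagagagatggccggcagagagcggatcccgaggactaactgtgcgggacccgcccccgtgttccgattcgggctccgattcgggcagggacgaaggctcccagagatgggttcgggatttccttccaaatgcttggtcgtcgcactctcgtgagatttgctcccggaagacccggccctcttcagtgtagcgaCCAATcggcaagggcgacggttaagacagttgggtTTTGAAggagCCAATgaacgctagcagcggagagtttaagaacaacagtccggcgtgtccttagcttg
Ube2c: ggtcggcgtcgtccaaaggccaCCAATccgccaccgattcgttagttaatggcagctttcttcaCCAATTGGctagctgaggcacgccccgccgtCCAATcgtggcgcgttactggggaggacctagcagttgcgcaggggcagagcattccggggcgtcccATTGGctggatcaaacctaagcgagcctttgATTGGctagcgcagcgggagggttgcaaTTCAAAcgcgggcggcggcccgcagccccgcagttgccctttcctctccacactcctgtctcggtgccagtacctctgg
The Ccnb2 window held 3 CCAAT boxes followed by a CHR element whose first base lay at position 5, counting the start base as 1, and a further CHR element at −167. Ube2c held 6 CCAAT matches, an overlapping pair on opposite strands included, and a single CHR element on the opposite strand at −29. A match describes these letters and does not show that a factor binds there.

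The CHR element was present in 32 of the 39 windows (82.1%, Wilson 95% interval 67.3% to 91.0%), beside 12% of the 13781 windows of the other genes in the deposited table and 17.9% of all 32851 windows. A CCAAT box was present in 32 of 39 windows as well (82.1%), beside 37.4% of those other genes and 37.4% of all windows. Both elements stood in 29 of 39 windows (74.4%), beside 4.80% of the other genes' windows and 6.95% of all windows. From 50 bases before to 50 after the start, a CHR element was found in 27 of 39 windows (69.2%), beside 2.92% of the other genes' windows. These intervals cover the counting of windows only, and some genes have more than a single window.

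**Figure D1:**
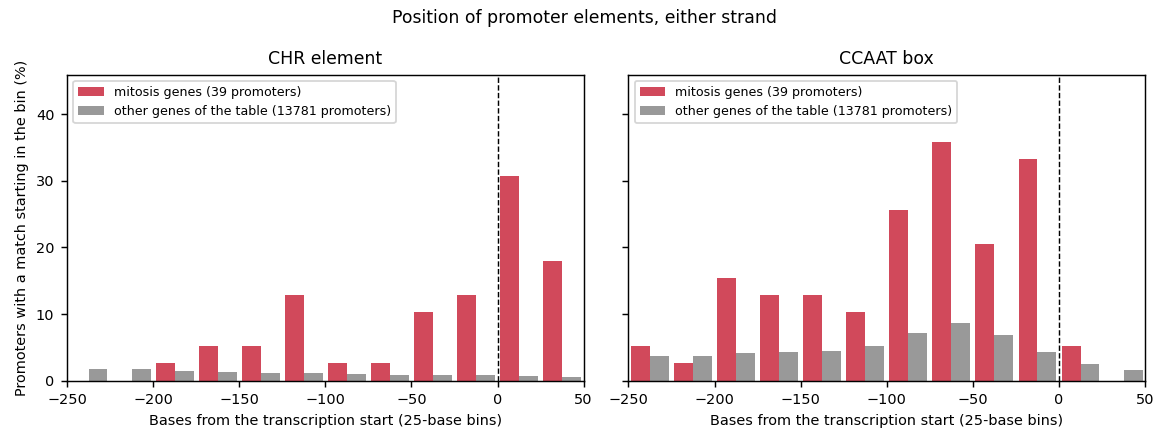
Share of promoters (%) with a match starting in each 25-base bin, by distance from the transcription start in bases, for the 39 promoters of mitosis genes and the 13781 of other genes in the table, either strand. In mitosis genes the CHR element was most frequent in the bin from the start to 25 bases after it (30.8% of promoters) and the CCAAT box in the bin from −75 (35.9%).

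The element was found near genes that rose and near genes that fell. Of the 14 mitosis genes called in any comparison described below, 8 had a CHR element between 100 bases before and 50 after the start, and 40 bases around the element nearest to the start are given for these, with the element in capitals. The windows are chr9:70421528-70421567 for Ccnb2, chr2:118598221-118598260 for Bub1b, chr5:45669878-45669917 for Ncapg and chr7:135716455-135716494 for Mki67, which rose in at least 1 population. They are chr10:69352905-69352944 for Cdk1, chr2:164769883-164769922 for Ube2c, chr2:69206167-69206206 for Spc25 and chr7:80294429-80294468 for Prc1, which fell in EpSCs (GRCm38.p6).
Ccnb2: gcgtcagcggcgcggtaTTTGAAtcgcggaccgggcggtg
Bub1b: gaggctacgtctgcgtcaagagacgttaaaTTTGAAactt
Ncapg: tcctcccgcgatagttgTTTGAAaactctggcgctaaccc
Mki67: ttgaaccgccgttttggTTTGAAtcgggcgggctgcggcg
Cdk1: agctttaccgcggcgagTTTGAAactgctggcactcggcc
Ube2c: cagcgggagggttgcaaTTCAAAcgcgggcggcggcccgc
Spc25: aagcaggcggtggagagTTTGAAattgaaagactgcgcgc
Prc1: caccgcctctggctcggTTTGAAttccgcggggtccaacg
The element lay on the gene's own strand in 7 of these 8, the exception being Ube2c. Of the other called genes, Cenpe, Nusap1 and Ckap2 had no match in this window, and Ccna2, Aurkb and Incenp had no promoter in the table. Ckap2 had a CHR element at −101, just outside this window, and is counted below among the genes without it. Of the mitosis genes with a promoter, the 26 with a CHR element in this nearer window had a median log2 fold change of 0.86 in Germ in the authors' deposited table and the 10 without it 0.72. In EpSCs the same medians were 0.11 and 0.29, and in Bulge −0.06 and 0.27, in the authors' deposited table. Among the other genes of the authors' deposited table, the 616 with the element had a Germ median of 0.12 and the 10133 without it 0.10.

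Every log2 fold change (DPCP minus control) and p of a gene comes from the authors' deposited table, for which the processing notes name limma. "Called" means an adjusted p under 0.05, with Benjamini-Hochberg adjustment over all 13816 IDs. Values per library could not be tied to samples and were not used, so no level or standard deviation is given, the labelled cell types could not be checked by levels, and depth is unknown. In these bulk samples, fewer cycling cells and less of each RNA per cell cannot be told apart, and day 0 against day 2 cannot be told apart from control against DPCP.

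Setting DPCP against control within a population asks whether the mitotic program differed at day 2. In Germ, 37 of the 43 genes had a log2 fold change above 0, but Ccnb2 alone passed the test over all genes, and it rose. In EpSCs, 6 genes rose and 7 fell. In Bulge, again, Ccnb2 alone was called, and it rose. In all, 14 of the 43 genes were called in at least 1 population (32.6%), beside 44.96% of all genes, and 29 in none.

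In Germ, 1 of 43 genes was called (2.33%), beside 1.06% of all genes (0.847% higher and 0.21% lower). The median log2 fold change of the 43 genes was 0.86, against 0.10 over all genes, and 37 of 43 lay above 0 (86.0%), against 55.0% of all genes in the authors' deposited table. At an unadjusted p under 0.05, 22 of 43 were higher (51.2%), beside 13.6% of all genes, and 0 were lower, beside 12%. The 6 genes below 0 were Cdk1, Bub3, Mad2l1, Ttk, Nuf2 and Nusap1, and none of these passed even the unadjusted threshold. At an adjusted p under 0.10, Ccnb1, Ccnb2, Cdc20, Tpx2, Cdca8, Cenpa, Kif4, Ckap2, Ect2, Smc2 and Mki67, 11 genes in all, were higher in the authors' deposited table. The share of all genes under 0.10 is not given here, so this count has no background beside it.

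In EpSCs, 13 of 43 genes were called (30.2%), beside 39.9% of all genes, so calls were not more frequent among mitosis genes than in the table as a whole. Those higher were 6, beside 19.9% of all genes, and those lower 7, beside 20% of all genes. The median was 0.25, against 0.00 over all genes (−0.0034), and the 43 values ran from −1.33 to 0.98 on the log2 scale in the authors' deposited table. Unadjusted, 11 were higher, beside 24.6% of all genes, and 7 lower, beside 24.3% (48.9% in either direction). In Bulge, 1 of 43 was called (2.33%), beside 10.3% of all genes (5.12% higher and 5.16% lower), and the median was 0.12, against −0.02 over all genes. At an unadjusted p under 0.05, 7 were higher in Bulge (16.3%), beside 14.7% of all genes, and 2 lower (4.65%), beside 14.5%.

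**Figure D2:**
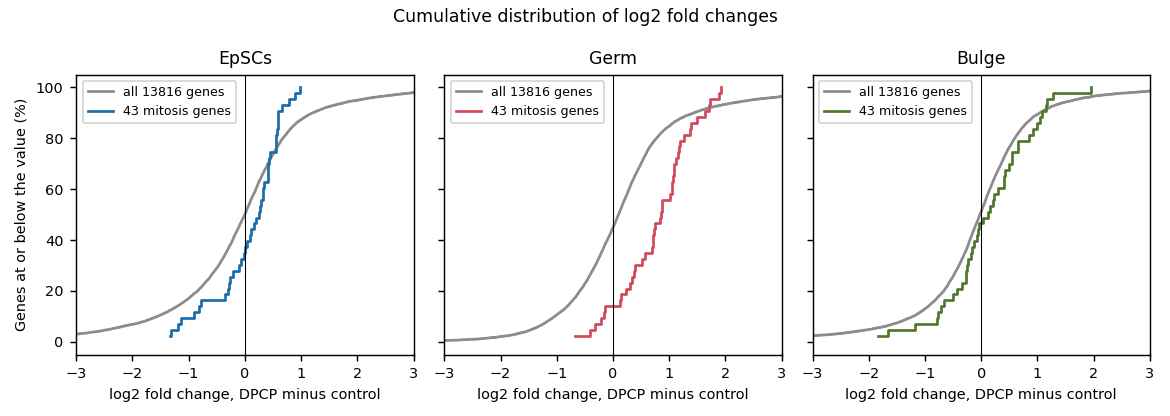
Cumulative share of genes (%) against the log2 fold change (DPCP minus control) of the authors' deposited table, in EpSCs, Germ and Bulge; grey lines are all 13816 genes (values beyond 3 either way are not drawn) and coloured lines the 43 mitosis genes. The Germ curve of the mitosis genes lies to the right of that of all genes over most of its length, with medians of 0.86 and 0.10.

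Among the cyclins and Cdk1, cyclin genes rose in some populations and the gene of their kinase fell in 1. Ccnb2, which encodes cyclin B2, rose 3.30-fold in Germ (log2 fold change 1.72, adjusted p = 0.0368) and 3.89-fold in Bulge (1.96, adjusted p = 0.0275) in the authors' deposited table. The EpSCs value of Ccnb2 in the authors' deposited table was 0.55 (adjusted p = 0.0744). Its near relative Ccnb1, the cyclin B1 gene, was not called anywhere, with log2 fold changes of 1.11 in Germ (adjusted p = 0.0694), 0.31 in Bulge and 0.17 in EpSCs, by the authors' deposited table. Ccna2, for cyclin A2, which acts in S phase and early mitosis, rose in EpSCs (0.65, adjusted p = 0.0195) and stood at 1.37 in Germ (adjusted p = 0.145) and 0.66 in Bulge (adjusted p = 0.273) in the authors' deposited table. Cdk1, the mitotic kinase itself, fell 1.88-fold in EpSCs (−0.91, adjusted p = 0.0103) in the authors' deposited table. It stood at −0.41 in Germ and −0.04 in Bulge there, uncalled in both. Cdc25c, whose phosphatase activates Cdk1, stood at 1.26 in Germ (adjusted p = 0.167), 0.99 in Bulge and 0.59 in EpSCs, by the authors' deposited table and was not called.

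Of the 2 genes that act with the APC/C at anaphase, 1 fell in EpSCs, beside 20% of all genes lower there. Cdc20, the activator that the checkpoint holds back, stood at 1.05 in Germ (adjusted p = 0.0644), 1.06 in Bulge (adjusted p = 0.0785) and 0.29 in EpSCs (adjusted p = 0.369) in the authors' deposited table. Ube2c, the ubiquitin-conjugating enzyme that serves the APC/C, fell 2.27-fold in EpSCs (−1.18, adjusted p = 0.0047) and stood at 0.52 in Germ (adjusted p = 0.28) and 0.42 in Bulge (adjusted p = 0.568) in the authors' deposited table. Exons of another gene on the opposite strand cover 22.8% of the annotated exon bases of Ube2c, and the strand setting of the counting is not stated. Such overlap exceeded 10% for 7 of the 43 genes, Ccna2, Ncapg and Prc1 among them, and reached 29.3% for Kif20a. The core subunits and partners of the APC/C, a list of 17 genes all measured, had 1 gene higher and 5 lower in EpSCs (35.3% called, beside 39.9% of all genes). In Germ and Bulge 0 were called. Unadjusted, 1 was higher in Germ (5.88%, beside 13.6% of all genes) and 6 lower (35.3%, beside 12%). In Bulge 1 was higher unadjusted (5.88%, beside 14.7% of all genes) and 4 lower (23.5%, beside 14.5%). The smallest adjusted p of that list in EpSCs belonged to Anapc10 (−1.43, adjusted p = 0.000605), Anapc13 (−1.02) and Fzr1 (−0.72), the last a further APC/C activator, in the authors' deposited table.

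Polo kinase and Aurora A with its activator had 0 of 3 genes called in any population. Calls over all genes were 39.9% in EpSCs, 1.06% in Germ and 10.3% in Bulge. Tpx2, a microtubule-binding protein that activates Aurora A, stood at 1.88 in Germ (adjusted p = 0.0761), 0.92 in Bulge (adjusted p = 0.178) and 0.56 in EpSCs (adjusted p = 0.123) in the authors' deposited table. Plk1 stood at 0.87, 0.54 and 0.41 and Aurka at 0.58, 0.41 and −0.0011 in Germ, Bulge and EpSCs, in that order, in the authors' deposited table. The sign of the Aurka value in EpSCs turned when changes were centred on the median of all genes (0.0024).

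The chromosomal passenger complex has 4 subunits, and in EpSCs they split. Of the 4 genes, 2 were called there, each lower (50%, beside 39.9% of all genes called and 20% lower). Aurkb, its kinase, fell 2.52-fold (−1.33, adjusted p = 0.006) and Incenp, the scaffold that activates it, fell by 0.79 on the log2 scale (adjusted p = 0.0112) in the authors' deposited table. The targeting subunits Birc5 (survivin) and Cdca8 (borealin) stood at 0.19 (adjusted p = 0.545) and 0.42 (adjusted p = 0.0984) in EpSCs, by the authors' deposited table. In Germ all 4 lay above 0 without a call, from 0.73 for Birc5 to 1.08 for Cdca8 (adjusted p = 0.0832), in the authors' deposited table. The Bulge values in the authors' deposited table were 1.27 for Birc5 (adjusted p = 0.138), 0.86 for Cdca8, 0.12 for Incenp and −0.79 for Aurkb (adjusted p = 0.404).

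Checkpoint genes had a Germ median of −0.13 over 5 genes, against 0.86 over all 43. Bub1b, which encodes BubR1 of the mitotic checkpoint complex, rose 1.86-fold in EpSCs (0.90, adjusted p = 0.0148) and stood at 1.02 in Germ (adjusted p = 0.123) and −0.12 in Bulge in the authors' deposited table. Bub1, a kinase that recruits the others to kinetochores, stood at 0.72 in Germ (adjusted p = 0.225), 0.32 in EpSCs and 0.23 in Bulge in the authors' deposited table. Bub3, Mad2l1 (the Mad2 inhibitor of Cdc20) and the kinase gene Ttk lay below 0 in all 3 populations. By the authors' deposited table, the lowest of these was Ttk in Bulge, at −1.66 (adjusted p = 0.0552).

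Of 6 centromere and kinetochore genes, 1 rose and 1 fell in EpSCs (33.3% called, beside 39.9% of all genes). In Germ and Bulge 0 were called, beside 1.06% and 10.3% of all genes. Unadjusted, 3 were higher in Germ (50%, beside 13.6% of all genes) and 1 in Bulge (16.7%, beside 14.7%). Cenpe, a kinesin that carries chromosomes to the spindle equator, rose 1.97-fold in EpSCs (0.98, adjusted p = 0.009) and stood at 1.93 in Germ (adjusted p = 0.131), the highest Germ value of the 43, and −0.28 in Bulge in the authors' deposited table. Cenpa, the histone H3 variant of centromeres, stood at 1.18 in Germ (adjusted p = 0.0527), 0.65 in Bulge and 0.58 in EpSCs, by the authors' deposited table. Cenpf, a large kinetochore-associated protein, stood at 1.71 in Germ (adjusted p = 0.119), 0.25 in EpSCs and −1.84 in Bulge (adjusted p = 0.205) in the authors' deposited table. Of the 3 NDC80 complex genes, which anchor microtubule ends, Spc25 fell in EpSCs (−0.81, adjusted p = 0.0152) in the authors' deposited table. Ndc80 and Nuf2 were not called, and the Germ values of the 3 were 0.40 for Ndc80, −0.15 for Nuf2 and 0.13 for Spc25 in the authors' deposited table.

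Of 6 spindle motor and microtubule genes, 1 rose and 1 fell in EpSCs (33.3% called, beside 39.9% of all genes). In Germ and Bulge 0 were called, beside 1.06% and 10.3% of all genes. Unadjusted, 4 were higher in Germ (66.7%, beside 13.6% of all genes) and 2 in Bulge (33.3%, beside 14.7%). Nusap1, a microtubule-bundling protein, fell 2.47-fold in EpSCs (−1.31, adjusted p = 0.0012) and stood at −0.68 in Germ (adjusted p = 0.356) and −1.18 in Bulge (adjusted p = 0.22) in the authors' deposited table. Ckap2, a spindle-associated microtubule protein, rose in EpSCs (0.59, adjusted p = 0.0361) and stood at 1.15 in Germ (adjusted p = 0.0694) and 1.08 in Bulge (adjusted p = 0.0624) in the authors' deposited table. Kif11, the motor that pushes spindle poles apart, stood at 1.20 in Germ (adjusted p = 0.161), 0.20 in Bulge and 0.10 in EpSCs, by the authors' deposited table. The chromokinesin gene Kif4 stood at 1.5 in Germ (adjusted p = 0.0903) in the authors' deposited table. The microtubule depolymerase gene Kif2c and Hmmr had their highest values in Bulge (1.17 and 1.15, adjusted p = 0.177 and 0.119) in the authors' deposited table.

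All 6 central spindle and cytokinesis genes lay above 0 in Germ without a call (4 higher unadjusted), against 2 in EpSCs and 1 in Bulge. Of all genes, 55.0% lay above 0 in Germ (13.6% higher unadjusted), 49.9% in EpSCs and 49.0% in Bulge. Prc1, which bundles antiparallel microtubules between the separating chromosomes, fell 2.20-fold in EpSCs (−1.14, adjusted p = 0.0008) and stood at 0.15 in Germ and −0.35 in Bulge in the authors' deposited table. Kif23 and Racgap1, which together form centralspindlin, stood at 1.08 (adjusted p = 0.118) and 0.69 (adjusted p = 0.154) in Germ in the authors' deposited table. In EpSCs their values were −0.07 and −0.21, and in Bulge −0.71 and −0.07, in the authors' deposited table. Ect2, the exchange factor that centralspindlin recruits to switch on RhoA, stood at 1.08 in Germ (adjusted p = 0.0763), 0.03 in EpSCs and −0.05 in Bulge in the authors' deposited table. Anln (anillin, of the contractile ring) stood at 0.87, −0.36 and −0.50 and Kif20a at 1.39, 0.58 and 0.54 in Germ, EpSCs and Bulge, in that order, in the authors' deposited table.

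The highest Germ value among 6 genes of chromosome structure was that of Mki67, which coats mitotic chromosomes and is the usual marker of cycling cells. Mki67 rose 1.47-fold in EpSCs (0.55, adjusted p = 0.0267) and stood at 1.63 in Germ (3.10-fold, adjusted p = 0.0832) and 0.40 in Bulge (adjusted p = 0.582) in the authors' deposited table. Top2a, the topoisomerase that untangles sister chromatids and a usual companion marker, was not called and stood at 0.34 in Germ, 0.12 in EpSCs and −0.42 in Bulge in the authors' deposited table. Of the condensin genes, Ncapg rose in EpSCs (0.79, adjusted p = 0.0495, just inside the threshold) in the authors' deposited table. Smc2, a core condensin subunit, stood at 0.84 in Germ (adjusted p = 0.0832) and Smc4, its partner, at 0.30 in the authors' deposited table, while Ncapd2 stood at 0.22 in Germ in the authors' deposited table.

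**Figure D3:**
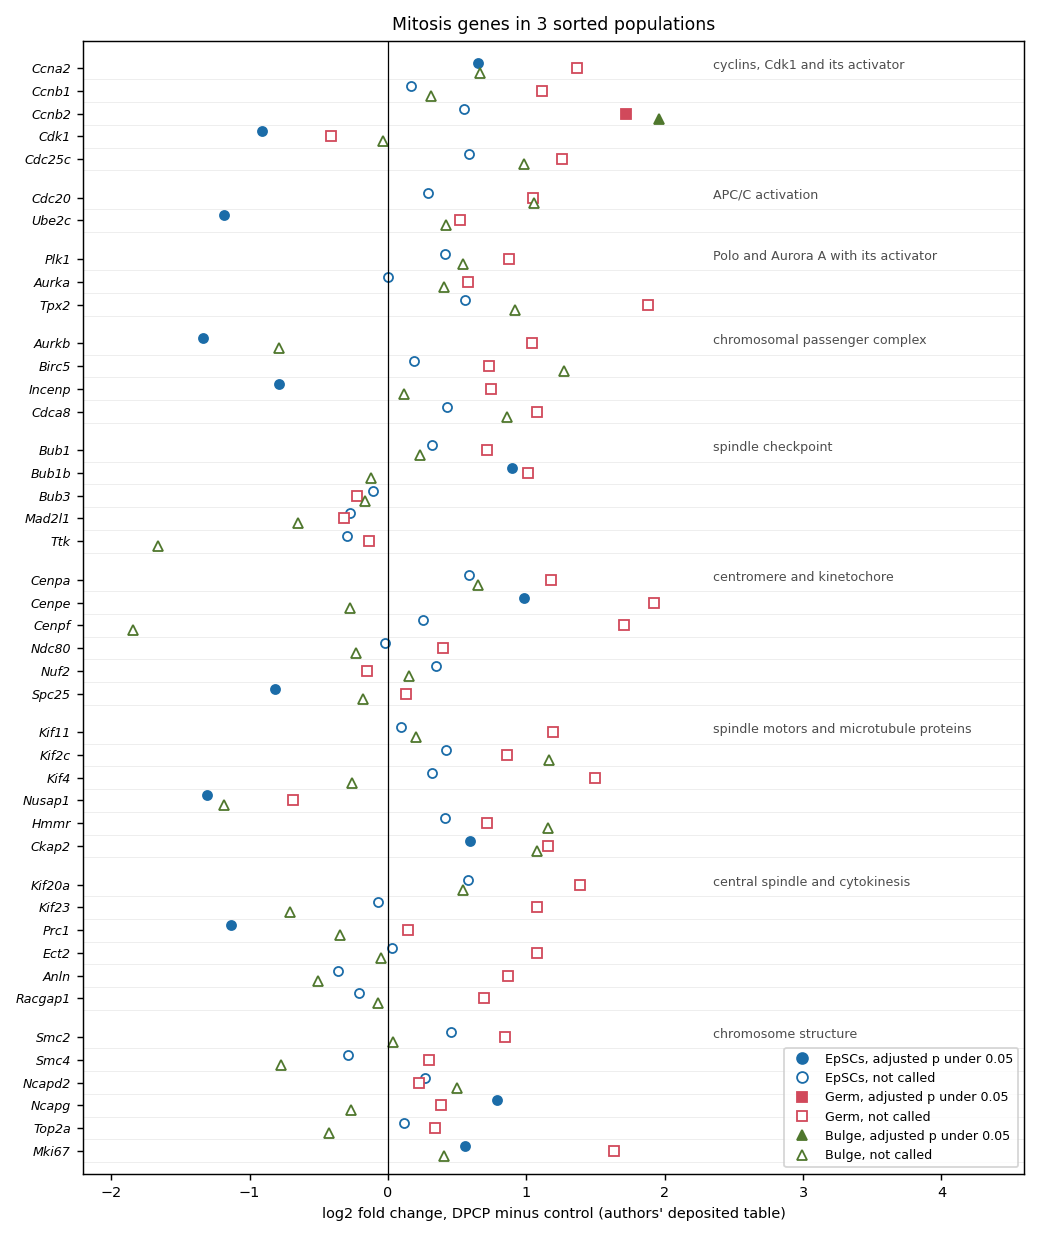
Log2 fold change (DPCP minus control) of each of the 43 mitosis genes in EpSCs (circles), Germ (squares) and Bulge (triangles), from the authors' deposited table, by role; filled symbols have an adjusted p under 0.05. Germ gave the highest of the 3 values for 32 of the 43 genes, a count not made over all genes, and Ccnb2 is filled in both Germ and Bulge.

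The DPCP effects of pairs of populations were set against each other by a test of the difference of their log2 fold changes, with a standard error (SE) rebuilt from each fold change and p and adjustment over all 13816 IDs. This approximation assumes independent libraries. Between Germ and EpSCs, 4 of 43 genes were called (9.30%), beside 12.2% of all genes (6.47% higher and 5.76% lower), all 4 with a higher effect in Germ. They were Ube2c (difference 1.70, SE 0.48, adjusted p = 0.00807), Aurkb (2.38, SE 0.74, adjusted p = 0.0169), Incenp (1.53, SE 0.51, adjusted p = 0.0273) and Prc1 (1.28, SE 0.45, adjusted p = 0.0396). Each of the 4 had fallen in EpSCs. The calls of Incenp and Prc1 were lost with a t score of 4 degrees of freedom (adjusted p = 0.0521 and 0.0817), and that of Prc1 also after centring on the median of all genes (adjusted p = 0.0597). That t score called Ccnb2, Tpx2 and Ect2 besides Ube2c and Aurkb. The difference was above 0 for 38 of 43 genes (88.4%), against 51.4% of all genes, with a median of 0.66, against 0.02 over all genes. Unadjusted, 12 showed a higher effect in Germ (27.9%), beside 13.7% of all genes, and 0 a lower one, beside 11.5%.

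Among the genes next in order, 4 belonged to cytokinesis and none passed the normal test between Germ and EpSCs. They were Ect2 (1.05, 95% interval 0.26 to 1.84, adjusted p = 0.0661), Racgap1 (0.91, adjusted p = 0.0803), Anln (1.23, adjusted p = 0.0905) and Kif23 (1.15, adjusted p = 0.091). The difference for Ccnb2 was 1.18 (interval 0.13 to 2.22, adjusted p = 0.133) and that for Mki67 was 1.08 (interval −0.09 to 2.25). For Ncapd2 the interval ran from −0.71 to 0.62 and for Top2a from −0.44 to 0.89, so a difference of 1 in either direction lay outside both.

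Between Germ and Bulge, 0 of 43 genes were called by this normal approximation, beside 5.99% of all genes (3.72% higher). Unadjusted, 10 showed a higher effect in Germ, beside 12.2% of all genes, and 0 a lower one, beside 8.73%. With the t score of 4 degrees of freedom 1 was called, Kif23. The smallest adjusted p was that of Cenpf (difference 3.55, interval 1.16 to 5.94, adjusted p = 0.0563), followed by Kif23 (1.78, interval 0.56 to 3, adjusted p = 0.0603). Between EpSCs and Bulge, 0 of 43 were called, beside 10.4% of all genes (5.46% higher and 4.91% lower), with 1 called by the t score (Ccnb2). Unadjusted, 2 were higher there (4.65%, beside 13.3% of all genes) and 3 lower (6.98%, beside 12.9%). The smallest adjusted p there was that of Ube2c (−1.6, interval −2.75 to −0.45, adjusted p = 0.0564). These 3 tests use each population more than once and are not independent of each other.

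**Figure D4:**
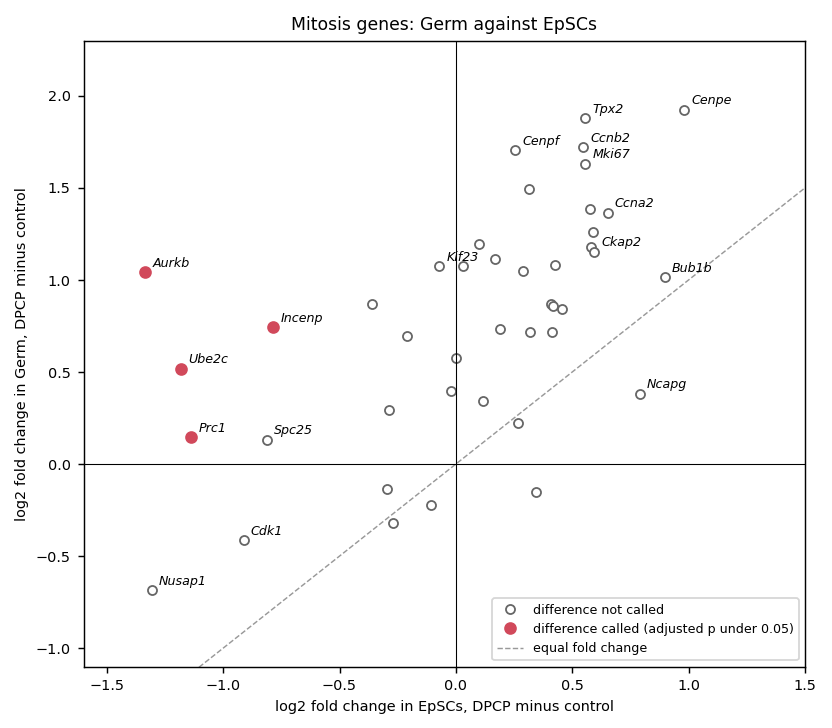
Log2 fold change in Germ (vertical) against that in EpSCs (horizontal), DPCP minus control, for the 43 mitosis genes of the authors' deposited table; filled points are the 4 genes whose difference was called, and the dashed line marks equal change. All but 5 genes lie above the line.

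Across the 43 genes, the log2 fold changes of the EpSCs and Germ comparisons had a Pearson r of 0.59 and a Spearman rho of 0.62, against 0.17 and 0.24 across all 13816 IDs in the authors' deposited table. Those of EpSCs and Bulge had r = 0.45 (rho 0.54), against 0.31 (rho 0.32) across all IDs, and those of Germ and Bulge r = 0.37 (rho 0.37), against 0.22 (rho 0.24). These are across genes, which are not independent replicates, and whether populations shared animals is not stated. In all 3 populations 19 genes lay above 0, among them Ccnb1, Ccnb2, Cdc20, Tpx2, Cenpa, Kif11 and Mki67, and 5 lay below 0, namely Cdk1, Bub3, Mad2l1, Ttk and Nusap1. Genes sharing a sign in all 3 populations were not counted over the whole table, so these counts have no background.

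Other genes of the cell cycle were counted in lists chosen with earlier results of these data known. Their counts stand beside 19.9% of all genes higher and 20% lower in EpSCs (39.9% in all), 1.06% called in Germ and 10.3% in Bulge. Unadjusted counts in Germ stand beside 13.6% of all genes higher and 12% lower. Of 34 further kinetochore and centromere genes measured (of 38 symbols, old and new names included), 3 were higher and 4 lower in EpSCs (20.6% called) and 1 lower in Bulge. In Germ 0 of these were called (unadjusted, 4 higher, or 11.8%, and 2 lower, or 5.88%). Their medians were −0.23, 0.21 and 0.12 in EpSCs, Germ and Bulge. Cenpk, of the constitutive centromere network, fell by 2.17 in EpSCs (adjusted p = 0.000216), and Mis12, a bridge to the outer kinetochore, rose by 0.95 there in the authors' deposited table. Of 26 further spindle and cytokinesis genes, 4 were higher and 5 lower in EpSCs (34.6% called) and 2 higher in Bulge. In Germ 0 of these were called (unadjusted, 10 higher, or 38.5%, and 0 lower). Psrc1, a spindle protein and p53 target, rose in EpSCs (3.04, adjusted p = 1.38e-05) and Bulge (1.70, adjusted p = 0.026) in the authors' deposited table. Gtse1, a microtubule-bound regulator of p53, rose in Bulge by 2.04 (adjusted p = 0.00873), and Cep55, which completes abscission, rose by 1.5 in EpSCs (adjusted p = 0.00138) in the authors' deposited table. Of 16 further condensin, cohesin and separase genes, 4 were higher and 2 lower in EpSCs (37.5% called), 0 called in Germ (unadjusted, 5 higher and 1 lower) and 1 lower in Bulge, which was the securin gene Pttg1 (−1.18, adjusted p = 0.0206 in the authors' deposited table).

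Of 15 regulators of mitotic entry, 0 were higher and 6 lower in EpSCs (40% called, beside 39.9% of all genes). In Germ and Bulge 0 of the 15 were called. Unadjusted, 2 were higher and 1 lower in Germ, and 1 higher and 0 lower in Bulge. Over all genes the unadjusted shares were 13.6% higher and 12% lower in Germ, and 14.7% and 14.5% in Bulge. Wee1, the kinase that restrains Cdk1, fell by 1.69 (adjusted p = 0.000334), Cks2, a Cdk-binding subunit, by 1.31 (adjusted p = 0.00101) and Cdc25a by 0.72 (adjusted p = 0.00691) in EpSCs, by the authors' deposited table. Of 21 MuvB, E2F and FOXM1 regulators, which act on the promoter elements shown above or on E2F sites, 4 were higher and 1 lower in EpSCs (23.8% called), 0 called in Germ (unadjusted, 1 higher and 0 lower) and 1 lower in Bulge. Among the 4 higher in EpSCs were E2f2 (1.05, adjusted p = 0.00138), Lin9 (0.89, adjusted p = 0.0378) and E2f6 (0.73, adjusted p = 0.0462), against 1 lower, in the authors' deposited table. Foxm1, the late cell-cycle activator, was not called and stood at 1.37 in Germ (adjusted p = 0.0992), 1.31 in Bulge (adjusted p = 0.163) and −0.67 in EpSCs (adjusted p = 0.117) in the authors' deposited table. Mybl2 stood at 0.21, 0.69 and −0.42 and E2f1 at 0.03, −0.65 and −0.59 in Germ, Bulge and EpSCs, in that order, in the authors' deposited table, none of them called. Of 11 genes for Cdk inhibitors, D cyclins and the D cyclin kinases Cdk4 and Cdk6, 1 was higher and 3 lower in EpSCs (36.4% called), Cdk4 among the lower (−0.45, adjusted p = 0.0293 by the authors' deposited table), 0 called in Germ (unadjusted, 0 higher and 2 lower) and 1 lower in Bulge. Ccnd1, cyclin D1, fell by 1.32 in EpSCs (adjusted p = 0.00163), and Cdkn1c, the p57 inhibitor, fell by 1.83 in Bulge (adjusted p = 0.0141) in the authors' deposited table. In EpSCs, the inhibitor genes Cdkn2d (−0.95, adjusted p = 0.00274) and Cdkn2b (1.12, adjusted p = 0.00698) were called as well, by the authors' deposited table. Cdkn1a, the p21 inhibitor, was not called, at 1.15 in Bulge, −0.19 in EpSCs and −0.58 in Germ in the authors' deposited table.

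Genes of G1/S and DNA replication, the step before mitosis, included 1 higher and 19 lower in EpSCs of 44 measured (45.5% called, beside 39.9% of all genes, of which 20% lower). In Germ 0 were called (unadjusted, 4 higher and 2 lower, beside 13.6% and 12% of all genes), and in Bulge 3 were lower, beside 5.16%. The medians were −0.46 in EpSCs, 0.10 in Germ and −0.21 in Bulge. Pold1, the catalytic subunit of a replicative polymerase, fell by 1.33 in EpSCs (adjusted p = 0.000596) and Pcna, the replication clamp, fell by 0.46 (adjusted p = 0.0368) in the authors' deposited table. The test of the difference between Germ and EpSCs called 5 of these 44 genes with a higher effect in Germ, beside 6.47% of all genes, and 1 with a lower effect, beside 5.76% (13.6% in all, beside 12.2%).

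**Figure D5:**
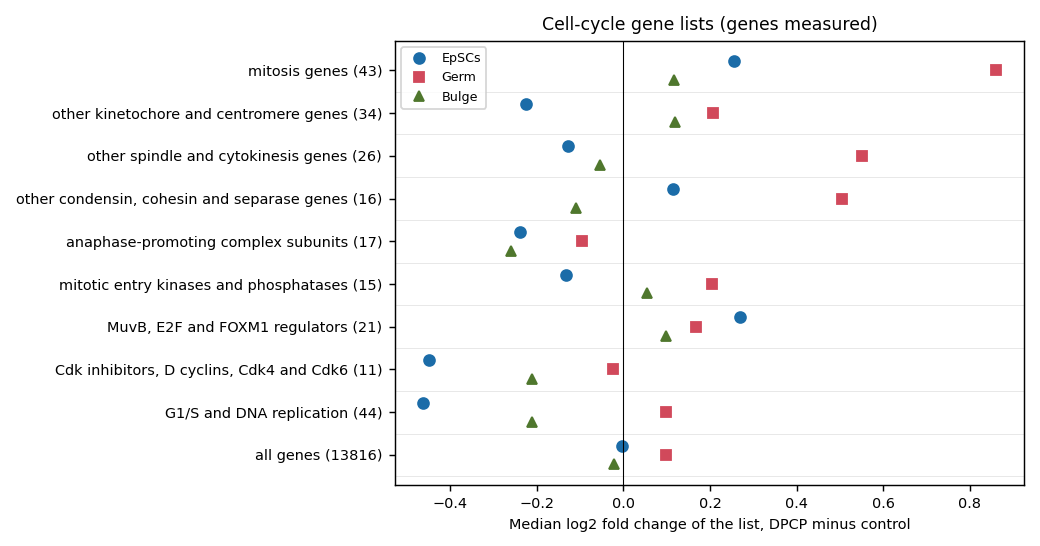
Median log2 fold change (DPCP minus control) of each cell-cycle list in EpSCs (circles), Germ (squares) and Bulge (triangles), with the number of genes measured in brackets. The mitosis genes have the highest Germ median (0.86) of the lists drawn, and G1/S and DNA replication the lowest EpSCs median (−0.46).

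Some markers of other cells moved in the same comparisons, and their part in the mitosis values was not tested. Over all genes, 39.9% were called in EpSCs (19.9% higher and 20% lower), 1.06% in Germ and 10.3% in Bulge. Unadjusted, 24.6% of all genes were higher and 24.3% lower in EpSCs, 13.6% and 12% in Germ, and 14.7% and 14.5% in Bulge. In Germ, 6 of 8 melanocyte markers rose (median 6.09), among them Dct (6.45) and Tyrp1 (7.57), and 2 of 8 endothelial markers rose (median 4.37), namely Tie1 (4.67) and Kdr (5.21), in the authors' deposited table. Of 4 fibroblast markers measured 0 were called there (median 3.48, 3 higher unadjusted), and of 8 leukocyte and macrophage and 3 T cell markers 0 were called (medians 1.48 and 1.37, 0 unadjusted). Basal keratinocyte markers, 5 of 5 measured, had 0 called in Germ and in Bulge (unadjusted, 2 lower in Germ and 0 in Bulge) and 4 lower in EpSCs, with medians of −0.49, 0.12 and −0.72. In EpSCs, melanocyte markers had 2 of 8 higher (25% called, median 2.22). Fibroblast markers had 2 of 4 lower (50% called, median −1.26), and the other 2 lay above 0. Leukocyte and macrophage markers had 3 of 8 lower (37.5% called, median −1.61). Of these 8, 3 lay above 0, and unadjusted 2 were higher and 4 lower. Follicle stem cell markers had 5 of 8 higher and 1 lower in EpSCs, hair germ markers 1 of 6 higher and 4 lower, and interfollicular markers 3 of 5 lower. The hair germ marker higher there was Lgr5 (2.02, adjusted p = 0.0287 in the authors' deposited table), which is also counted among the follicle stem cell markers. In Germ, 1 of 5 interfollicular markers was lower, and 0 of 8 follicle stem cell and 0 of 6 hair germ markers were called (unadjusted, 1 higher and 1 lower, and 2 higher and 1 lower). In Bulge, 1 of 8 melanocyte markers, 1 of 8 follicle stem cell markers, 3 of 6 hair germ markers and 2 of 5 interfollicular markers were lower.

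RNA of ribosomal proteins, mitochondria and immediate early genes moved too. Their counts stand beside 20% of all genes called lower in EpSCs, 0.21% in Germ and 5.16% in Bulge. Unadjusted, 12% of all genes were lower in Germ and 14.5% in Bulge. Ribosomal protein genes had medians of −1.28 in EpSCs (75 of 80 lower), −1.98 in Germ (0 called, 76 lower unadjusted) and −0.24 in Bulge (0 called, 0 unadjusted), and the 12 mitochondrially encoded genes −2.55 (10 lower), −2.42 (0 called, 7 lower unadjusted) and −0.60 (0 called, 0 unadjusted). Of 16 immediate early genes, which tissue dissociation can induce, 13 were lower and 1 higher in EpSCs (median −1.90). In Germ 0 were called (3 higher unadjusted, beside 13.6% of all genes), and in Bulge 1 was higher, beside 5.12%. Unadjusted, 8 were higher in Bulge (50%, beside 14.7% of all genes), and all 16 lay above 0 there (median 0.97). Across all protein-coding genes with an annotated length, those with a longest transcript of up to 2500 bases had Germ and EpSCs medians of −0.19 and −0.18, and those over 4000 bases 0.32 and 0.15. In Germ, the 13 mitosis genes of up to 2500 bases had a median of 1.04, the 16 between these limits 0.73 and the 14 over 4000 bases 0.97. The same medians were 0.29, 0.26 and 0.19 in EpSCs and 0.42, 0.02 and −0.15 in Bulge. In Bulge, all protein-coding genes of up to 2500 bases had a median of −0.21 and those over 4000 bases 0.22.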

How the data were processed

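RNA was sequenced in 18 samples, 3 in each of 6 groups named by the sample titles. Per the submitters' processing notes, the tools named were STAR 2.7.6a, cutadapt 3.5, FastQC 0.11.9 and limma 3.60.6, and the build was GRCm38 (mm10), and per the labels' protocols a stranded mRNA kit was used. How reads were counted, filtered, normalized and modelled is not given in the sources used here. In their table, the authors deposited log2 fold changes, p-values and adjusted p-values for each of 3 comparisons, per the file headers. The adjusted p-values deposited equalled a Benjamini-Hochberg adjustment over 13816 IDs. A further 36 columns of values per library carried names that match no sample label and were not used, so planned fits on levels, with replicates left out or as blocks, were not run. If samples did not come from separate animals, p-values measure only the spread between them.

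Differences of effects used SEs rebuilt as the fold change over the normal score of its p (Python 3.11.15, scipy 1.17.1). This is an approximation, and calls near the threshold change with the score used. Promoters were from RefSeq (GRCm38.p6), transcript lengths from GENCODE. Members and lists were chosen with earlier results of these data known. Full values are given for members called in any population, the member of smallest p of each role group and a fixed set of markers. For pathway lists, some called genes and a fixed set of regulators are named. The named genes are not always the called genes of smallest adjusted p.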

Additional observations from a re-analysis of the deposited data

Results flagged for a closer look

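For 4 mitosis genes the DPCP effect differed between Germ and EpSCs by the approximate test of the difference, each with a higher effect in Germ. On the log2 scale the differences were 1.70 for Ube2c, 2.38 for Aurkb, 1.53 for Incenp and 1.28 for Prc1. With a t score of 4 degrees of freedom Incenp and Prc1 were no longer called (adjusted p = 0.0521 and 0.0817), after centring on the median of all genes Prc1 was not (0.0597), and with Benjamini-Yekutieli adjustment none of the 4 was (0.0816 to 0.40). Leaving out libraries to see whether a single one carried these values was not possible with the columns used.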

How the results depend on the processing

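Counts of called mitosis genes depended on the threshold. Counts over all genes under the other settings are not given here, except unadjusted. Whether the mitosis genes moved more than the table as a whole cannot be read from these counts. In EpSCs the 13 calls became 3 with Benjamini-Yekutieli adjustment (0 higher and 3 lower), 5 at an adjusted p under 0.01 and 0 when tested against a fold of 1.5, while 17 at an adjusted p under 0.10, 13 after centring on the median of all genes and 18 unadjusted stayed within 1.5 times. In Germ and in Bulge the single call of Ccnb2 became 0 with Benjamini-Yekutieli adjustment, 0 at 0.01 and 0 against a fold of 1.5, and 11 in Germ and 4 in Bulge at 0.10. The unadjusted counts, chosen after seeing the data, were 22 in Germ and 9 in Bulge. Over all genes the unadjusted shares were 48.9% in EpSCs, 25.7% in Germ and 29.2% in Bulge. Of the differences of effects, the 4 calls for Germ against EpSCs became 0 with Benjamini-Yekutieli adjustment, 5 with a t score of 4 degrees of freedom and 3 after centring. With that t score, Germ against Bulge gave 1 call and EpSCs against Bulge 1, each 0 in the normal approximation. Centring turned the sign of 3 values near 0: Aurka in EpSCs (0.0024), and Germ against Bulge for Ckap2 (−0.042) and Ube2c (−0.0202). Motif shares changed to 71.8% for the CHR element and 69.2% for CCAAT in the window from 100 bases before the start, and to 84.6% with TTCGAA allowed. No paired analysis was possible because the columns of values per library carry no sample label, and for the same reason other pseudocounts, filters and replicates left out were not run. Depth is unknown, so what it limits cannot be stated.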
